A study of Mus musculus with 2 samples.

Results

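Cytochrome P450 genes encode haem-containing monooxygenases, which insert an oxygen atom into fatty acids, sterols, steroids, vitamins and foreign compounds. They were chosen here by name: a gene of the deposited tables was taken when its GENCODE symbol was protein-coding and had the form Cyp, number, letter, number, leaving out Cyp26a1, Cyp26b1, Cyp27b1 and Cyp24a1. This gave 89 genes in 15 families, of 21474 protein-coding genes and 43346 gene rows in all. The naming rule uses no measured value.

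The enzymes are numbered by sequence likeness into families (the number) and subfamilies (the letter). Most microsomal P450 enzymes sit in the endoplasmic reticulum and receive electrons from the reductase Por, while the mitochondrial ones, such as Cyp11a1 and Cyp27a1, receive them from the ferredoxin Fdx1 and its reductase Fdxr. In the adult kidney the proximal tubule is known for P450 enzymes that hydroxylate or epoxidise arachidonic acid, and the large drug-metabolising subfamilies are mainly known from liver.

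Total RNA had been sequenced from mouse kidney (strain B6NCrl) at embryonic day 14.5, a stage at which nephrons are still being formed. Each of 2 libraries was made from 2 kidneys described as those of 1 embryo, although the same labels give both sexes pooled; 10 ng of RNA longer than 200 nt went into a library, and collections were 2 days apart. All samples belong to 1 untreated group, numbered as biological replicates 1 and 2, with no second condition, so levels and the spread between libraries are described and no gene was tested. Whether the samples came from different litters is not stated, both carry the same donor identifier, and the spread measured is that between these samples.

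Depth was 29718428 expected counts in replicate 1 and 29204212 in replicate 2, where an expected count is a read count estimated after sharing reads that match several features. Spike-ins are part of these totals. Levels are given in TPM (transcript abundance scaled for length and to the same total in each library), with replicate 1 first where both are given, and as mean ± SD (n = 2) otherwise. All 10 defining markers of the embryonic kidney, among them Cited1, Wt1 and Pax8, stood at 1 TPM or more in both libraries, beside 59.0% of all protein-coding genes. In whole tissue, fewer cells of a type and less RNA per cell cannot be told apart.

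Most P450 genes were silent or nearly so. Only 17 of the 89 reached 1 TPM in both libraries, which is 19.1% against 59.0% of all protein-coding genes, and 44 (49.4%) had 0 counts in both libraries against 19.9%. A count of 0, taken to allow up to 3 counts, allows 0.0555 to 0.189 TPM in replicate 1 and 0.0481 to 0.164 TPM in replicate 2, depending on the length of the gene. Cyp2u1 passed 1 TPM in replicate 1 alone, and the remaining 27 genes had some counts but stayed below 1 TPM in both.

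The expressed members were also modest in level. The 17 detected genes had a median of 5.55 TPM, against 18.3 TPM for the 12669 detected protein-coding genes, and the highest of them lay above 46.4% of those genes. Together the 89 genes summed to 141.65 TPM in replicate 1 and 98.1 TPM in replicate 2, or 0.0235% and 0.0189% of the counts on genes. The 10 highest genes held 81.5% and 81.6% of that sum, with family 4 at 28.2% and 26.6% and family 2 at 23.9% and 25.3%. A detected gene was found in 8 of the 15 families.

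**Figure D1:**
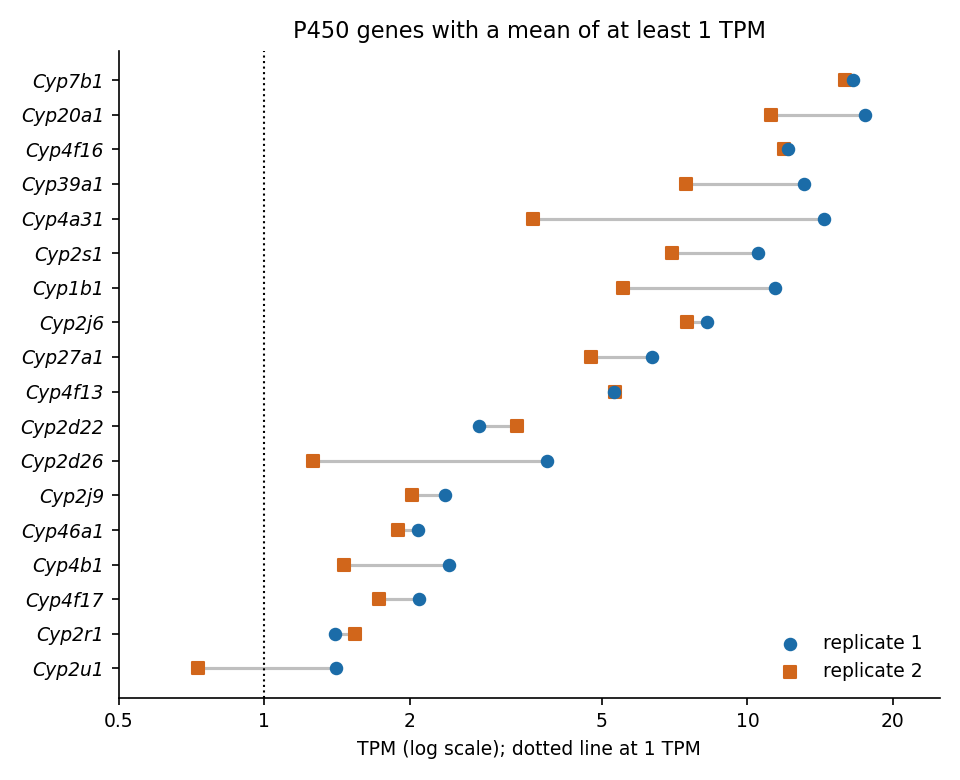
Level of the 18 P450 genes with a mean of at least 1 TPM, on a log axis in TPM, with a circle for replicate 1, a square for replicate 2 and a grey line joining them. Cyp7b1, Cyp4f16 and Cyp4f13 are nearly equal in both libraries, while Cyp4a31 runs from 14.4 down to 3.6 TPM.

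Enzymes of bile acid and oxysterol metabolism held 38.05 TPM in replicate 1 and 30 TPM in replicate 2. Of these 6 genes 4 were detected, beside 59.0% of all protein-coding genes. Cyp7b1, an oxysterol hydroxylase of the alternative bile acid pathway, was the highest of the 89 genes by mean level, at 16.5 TPM and 15.9 TPM (16.2 ± 0.431 TPM). The libraries were close for this gene, with 666 and 740 counts. It lies on mm10 chromosome 3, 18071950 to 18243338 (ENSMUSG00000039519.6), with no other P450 gene within 500 kb.

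Cyp39a1, which hydroxylates an oxysterol made from brain cholesterol, was at 13.1 and 7.47 TPM (10.3 ± 3.98 TPM). Cyp27a1, the mitochondrial sterol hydroxylase, was at 6.36 and 4.74 TPM. Cyp46a1, the cholesterol hydroxylase known mainly from neurons, was low at 2.08 and 1.89 TPM. The order was the same in both libraries.

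The detected genes of the group were thus those of its oxysterol branch. Cyp7a1, the rate-limiting enzyme of the classical bile acid pathway, and Cyp8b1, which sets the ratio of bile acids, had 0 counts in both libraries. So did 19.9% of all protein-coding genes. At 3 counts each, the limit for Cyp7a1 was 0.0732 and 0.0634 TPM. Cyp51, the sterol demethylase of cholesterol synthesis, falls outside the naming rule because its symbol has no letter, and stood above every member at 52.2 and 27.8 TPM.

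Steroid hormone synthesis was almost unrepresented among the 6 genes that carry it out, with a sum of 0.71 TPM in replicate 1 and 0.35 TPM in replicate 2. Cyp11a1, which cleaves the cholesterol side chain as the entry step, had 18 and 16 counts (0.68 and 0.35 TPM). Cyp11b1, the last step of corticosterone synthesis, had 2 and 0 counts. The remaining 4, Cyp11b2 (aldosterone synthase), Cyp17a1, Cyp19a1 (aromatase) and Cyp21a1, had 0 counts in both libraries, beside 19.9% of all protein-coding genes.

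The markers of the adrenal cortex, which lies next to the kidney, were measured as well. Of 8 such genes 3 were at 1 TPM or more in both libraries, beside 59.0% of all protein-coding genes. They were Scarb1 at 38.6 and 26.1 TPM, Akr1b7 at 26.6 and 24.0 TPM and the corticotropin receptor Mc2r at 3.01 and 3.19 TPM. The summed level of the 8 was 70.5 and 55.0 TPM, nearly all of it Scarb1 and Akr1b7. Star, the cholesterol carrier of steroid-making cells, had 0.92 and 0.97 TPM, Hsd3b6 had 1.11 and 0.59 TPM, and Nr5a1 had 10 and 6 counts. Mrap and Hsd3b1 had 0 counts. Of 8 gonad and germ cell markers 1, Inha, was detected, beside 59.0% of all protein-coding genes, with a summed level of 4.52 and 3.78 TPM over the list. Dhh had 31 and 52 counts, Ddx4 had 37 and 14 and Insl3 had 10.05 and 2.35. Gata4 had 2 and 2, Amh had 0 and 1, and Foxl2 and Dazl were at 0 counts. The part of such cells in the Cyp11a1 counts was not tested.

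Vitamin D and retinoid enzymes left by the rule were 2 genes. Cyp2r1, which carries out the first activating step on vitamin D, was at 1.4 and 1.54 TPM from 39 and 46 counts. Cyp26c1, a retinoic acid hydroxylase, had 2 and 1 counts. Cyp2r1 was therefore low but close between libraries.

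Fatty acid hydroxylases of family 4, with Cyp2u1, made up 18 genes, of which 5 were detected, beside 59.0% of all protein-coding genes. Their sum was 41.4 TPM in replicate 1 and 26.8 TPM in replicate 2. The Cyp4f subfamily, known for inactivating leukotrienes and for oxidising long-chain fatty acids, was close between the libraries in TPM, at 20.95 and 19.9 TPM over 9 genes. Its ratio of depth-scaled counts was 0.895 (interval 0.806 to 0.992). Cyp4f16 led the subfamily at 12.2 and 11.9 TPM (12.0 ± 0.163 TPM), followed by Cyp4f13 at 5.3 and 5.31 TPM and Cyp4f17 at 2.09 and 1.73 TPM. The other 6 were below 1 TPM, with Cyp4f18, a leukotriene hydroxylase of myeloid cells, at 0.94 and 0.67 TPM and Cyp4f37 and Cyp4f40 at 0 counts.

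Cyp4b1, which oxidises short and medium-chain fatty acids, was at 2.41 and 1.46 TPM. Cyp2u1 was at 1.41 and 0.73 TPM, Cyp4v3 at 0.98 and 0.62 TPM and Cyp4x1 at 0.42 and 0.28 TPM. All 4 of these were higher in replicate 1 in TPM and in depth-scaled counts, though the counting interval held 1 for all but Cyp2u1.

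**Figure D2:**
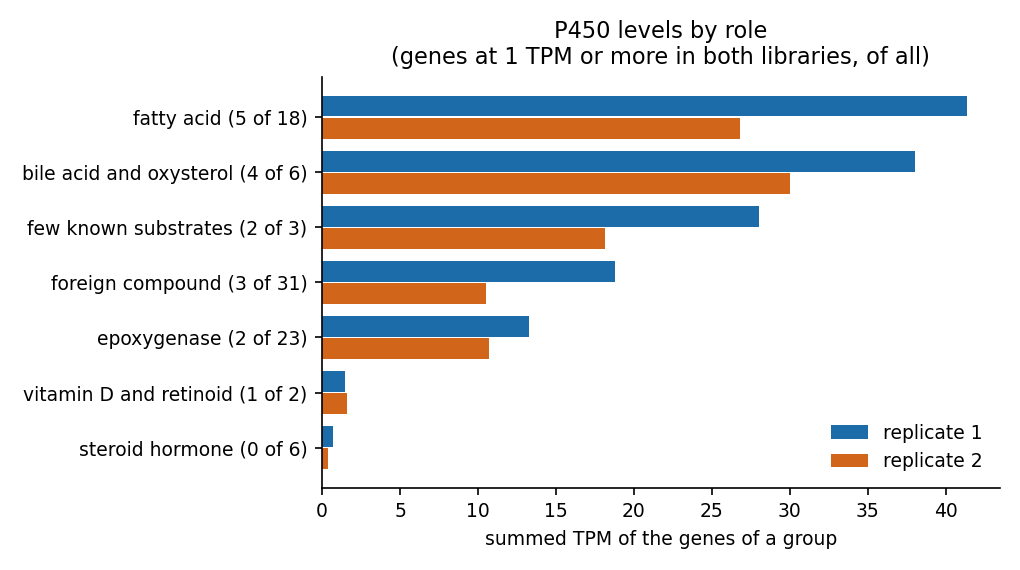
Summed TPM of P450 genes by role in each library (bars start at 0), with the number of genes at 1 TPM or more in both libraries of all genes in the group. Fatty acid and oxysterol enzymes hold the largest sums, at 41.4 and 38.05 TPM in replicate 1, and steroid hormone enzymes the smallest.

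The Cyp4a group, whose products hydroxylate the end of fatty acids and arachidonic acid and which are classical targets of the fatty acid sensor Ppara, came from essentially 1 gene. Cyp4a31 (ENSMUSG00000028712.8, chromosome 4, 115563649 to 115579015, plus strand) had 575.3 counts in replicate 1 and 192.5 in replicate 2. Cyp4a10 had 29.7 and 8.47 counts and Cyp4a32 had 1.02 and 0. Cyp4a14 and Cyp4a29 had 0 counts in both libraries. Of the group's symbols that end in a letter and so fall outside the rule, Cyp4a12a had 0 counts, Cyp4a12b had 2 and 7, and Cyp4a30b had 8 and 9.

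These genes are copies that lie side by side, and reads common to several of them are divided by estimation. The first 60 coding bases of the 3 closest copies, from GENCODE release M21 transcripts, are shown because they show how few bases separate Cyp4a31 from the copies that stayed below 1 TPM; capitals mark bases that differ from Cyp4a31.
Cyp4a31: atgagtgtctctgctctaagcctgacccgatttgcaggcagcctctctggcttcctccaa
Cyp4a10: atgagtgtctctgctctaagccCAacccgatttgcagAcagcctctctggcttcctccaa
Cyp4a32: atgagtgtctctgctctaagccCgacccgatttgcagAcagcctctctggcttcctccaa
Cyp4a10 differs from Cyp4a31 at 3 and Cyp4a32 at 2 of these 60 positions.

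Over the whole coding sequence of 1527 nt, Cyp4a31 and Cyp4a10 differed at 52 positions (96.6% identity), Cyp4a31 and Cyp4a32 at 61 (96.0%) and Cyp4a10 and Cyp4a32 at 43 (97.2%). Cyp4a14 and Cyp4a29 shared 75.1% and 74.7% with Cyp4a31. In stretches of 100 nt, about the fragment length implied by the effective lengths in the tables, 7.33% of those in Cyp4a31 transcripts occur in another gene, 12.2% of those in Cyp4a10 and 18.2% of those in Cyp4a32. Most of the shared stretches of Cyp4a10 and Cyp4a32 are shared between these 2 genes (197 of 256 and 197 of 287), and 139 of the 198 of Cyp4a31 are shared with Cyp4a32. How reads in them were divided was not tested, and the low counts of Cyp4a10 and Cyp4a32 are uncertain.

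Among the P450 genes, Cyp4a31 had the largest log2(TPM + 1) difference between the libraries, while Cyp2j13, Cyp4a10 and Cyp2c23, all below 1 TPM, had larger ratios of depth-scaled counts. It stood at 14.4 TPM in replicate 1, with the authors' deposited credibility bounds of 12.2 and 16.9, and at 3.6 TPM in replicate 2, with bounds of 3.32 and 5.30. The TPM ratio was 4.0, and the ratio of depth-scaled counts was 2.93 (exact conditional binomial 95% interval 2.48 to 3.46, counting error only). The libraries were also assigned different transcripts: one of 2396 nt took 53.8% of the gene in replicate 1 and 29.75% in replicate 2, one of 2509 nt took 31% and 70.1%, and one of 533 nt took 15.2% and 0.15%. The authors' deposited bounds did not overlap for the 2396-nt transcript (5.73 to 9.76 and 0.400 to 2.26 TPM) and did for the 2509-nt one (1.94 to 6.19 and 1.04 to 3.06 TPM).

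Among 10696 protein-coding genes with at least 5 TPM in the higher library, 8 had a larger log2 difference in favour of replicate 1 than Cyp4a31. Its log2(TPM + 1) difference was 1.74, against a median of 0.289 over all 12995 protein-coding genes with a mean of 1 TPM or more. By depth-scaled counts with TMM factors (a scaling by trimmed means) the difference was 1.35 against a median of 0.0255. Cyp4a31 was the only P450 gene that met the size rule of a log2 difference of at least 1 with at least 5 TPM in the higher library, a rule met in the same direction by 2.10% of all protein-coding genes and in the opposite direction by 0.233%. Of the 10696 genes that reach that level, 4.68% met it in either direction.

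As a result the Cyp4a group held 10.8% of the summed P450 level in replicate 1 and 3.86% in replicate 2, with group sums of 15.2 and 3.79 TPM. Cyp4a10 leaned the same way, with a ratio of depth-scaled counts of 3.69 (interval 1.65 to 9.30), from few counts. With 1 library on each side the difference has no replicate check.

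Markers of the proximal tubule, where Cyp4a enzymes are known to act in the adult, moved in the same direction. Of 16 such genes 14 had a mean of 1 TPM or more. All 14 were higher in replicate 1 in TPM, as were 76.3% of all protein-coding genes at that level. All 14 were higher in depth-scaled counts too, though the counting interval held 1 for Slc5a2 (0.889 to 2.17). With TMM factors on counts, 52.4% of all protein-coding genes at that level were higher in replicate 1. That share was not computed for depth-scaled counts without these factors. Their median log2(TPM + 1) difference was 0.843, beside 0.289 over all protein-coding genes at that level. The summed level of the list was 203.7 and 104.8 TPM. Slc34a1, the phosphate transporter, had a count ratio of 2.28 (interval 2.06 to 2.53) and Lrp2, the endocytic receptor megalin, of 2.34 (2.18 to 2.51), and Kap, abundant in adult tubules, was at 0 counts. The part of the proximal tubule in the Cyp4a difference was not tested.

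Regulators of the Cyp4a genes were present at low level. Ppara was at 1.78 and 1.24 TPM and its partner Rxra at 4.87 and 4.4 TPM, while Hnf4a, a factor of tubule and liver, was at 8.43 and 4.53 TPM. Of 13 fatty acid oxidation genes known as Ppara targets 10 were detected in both libraries, beside 59.0% of all protein-coding genes. For the 12 with a mean of 1 TPM or more the median log2(TPM + 1) difference was 0.467 in favour of replicate 1. Over all protein-coding genes at that level it was 0.289. All 12 were higher in replicate 1 in TPM, as were 76.3% of all protein-coding genes at that level. In depth-scaled counts 10 were higher, where 52.4% of all protein-coding genes at that level were higher with TMM factors on counts. Cpt1a, the mitochondrial carnitine transferase, was the 1 member of that list that met the size rule, at 18.3 and 7.49 TPM.

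The Cyp2j and Cyp2c genes, grouped here as epoxygenases by subfamily name, numbered 23. These subfamilies are known for enzymes that turn arachidonic acid into epoxides that act on vessels and ion transport. That activity was not checked gene by gene. Only Cyp2j6 and Cyp2j9 were detected, beside 59.0% of all protein-coding genes. They were at 8.23 and 7.49 TPM (7.86 ± 0.523 TPM) and 2.37 and 2.02 TPM. Both were close between the libraries. Cyp2j5, known as an abundant enzyme of the adult kidney, was at 0.89 and 0.43 TPM and Cyp2j11 at 0.65 and 0.56 TPM.

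Cyp2j13, another kidney-enriched Cyp2j enzyme of the adult, had 33 counts in replicate 1 and 2 in replicate 2, a depth-scaled ratio of 16.2 whose interval runs from 4.15 to 139. Its level stayed under 1 TPM in both libraries, at 0.83 and 0.03 TPM. It was named after its values were seen. Of the 15 Cyp2c genes 12 had 0 counts in both libraries, beside 19.9% of all protein-coding genes. Cyp2c23, the main renal epoxygenase of adult rodents, had 7 and 2 counts.

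Of 11 other enzymes around arachidonic acid 8 were detected, beside 59.0% of all protein-coding genes, led by the phospholipase Pla2g4a at 28.0 and 21.4 TPM, Ptgs1 at 19.3 and 12.2 TPM and Ptgis at 14.2 and 11.6 TPM. Ptgis (prostacyclin synthase) is itself a P450 enzyme outside the naming rule. Ephx2, which hydrolyses the epoxides, was at 9.34 and 6.47 TPM.

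Genes with few known substrates held 28 TPM in replicate 1 and 18.2 TPM in replicate 2. Cyp20a1, whose substrates remain unclear, was second of the 89 genes by mean level at 17.5 and 11.2 TPM (14.3 ± 4.46 TPM). Cyp2s1, an enzyme of epithelia outside the liver, was at 10.5 and 6.97 TPM. Cyp2w1, known from fetal gut and tumours, had 0 and 1 counts.

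The foreign compound group had the most genes, because every gene not placed in another role was put there. Of its 31 genes 3 were detected, beside 59.0% of all protein-coding genes. Another 20 had 0 counts in both libraries, beside 19.9% of all protein-coding genes. Cyp1b1, which also oxidises oestrogens and retinoids and is needed for normal eye development, led at 11.4 and 5.54 TPM (8.49 ± 4.16 TPM). Its count ratio was 1.76 (interval 1.59 to 1.94), a log2(TPM + 1) difference of 0.926 that fell just short of the size rule. Cyp1a1, the enzyme induced through the receptor Ahr, had 3 and 5 counts and Cyp1a2 had 0 in both libraries, while Ahr itself was at 6.32 and 3.09 TPM and Arnt at 27.6 and 11.6 TPM.

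Cyp2d22 and Cyp2d26 were the other detected members of the group. Cyp2d22 was at 2.78 and 3.34 TPM, one of 3 genes among the 18 with a mean of 1 TPM or more that were higher in replicate 2 on the TPM scale. Cyp2d26, by contrast, was at 3.85 and 1.26 TPM from 116 and 44 counts, a count ratio of 2.59 (interval 1.82 to 3.75). These genes stand at opposite ends of the Cyp2d cluster, leaned in opposite directions and share 6 stretches of 100 nt.

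Subfamilies known for drug metabolism in liver were close to empty. All 4 Cyp2a genes and Cyp2f2 had 0 counts in both libraries, as did 4 of 5 Cyp2b and 5 of 7 Cyp3a genes. Among all protein-coding genes the share was 19.9%. Cyp3a13 had 2 and 0 counts. Cyp3a41a, Cyp3a41b and Cyp2ab1, left out by spelling, had 0 counts as well. Cyp2e1, the ethanol-inducible enzyme of liver and adult kidney, had 11 and 8 counts. The receptors Nr1i2 and Nr1i3, which switch on Cyp3a and Cyp2b genes, had 7 and 0 counts and 11.9 and 11.25 counts.

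Of 10 hepatocyte markers 6 were detected, near the 59.0% of all protein-coding genes, with a summed level of 50.9 and 35.3 TPM. Afp led at 21.95 and 13.0 TPM, followed by Trf and Serpina1a, and Alb was at 1.34 and 1.05 TPM. The part of hepatocytes in the P450 values was not tested.

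**Figure D3:**
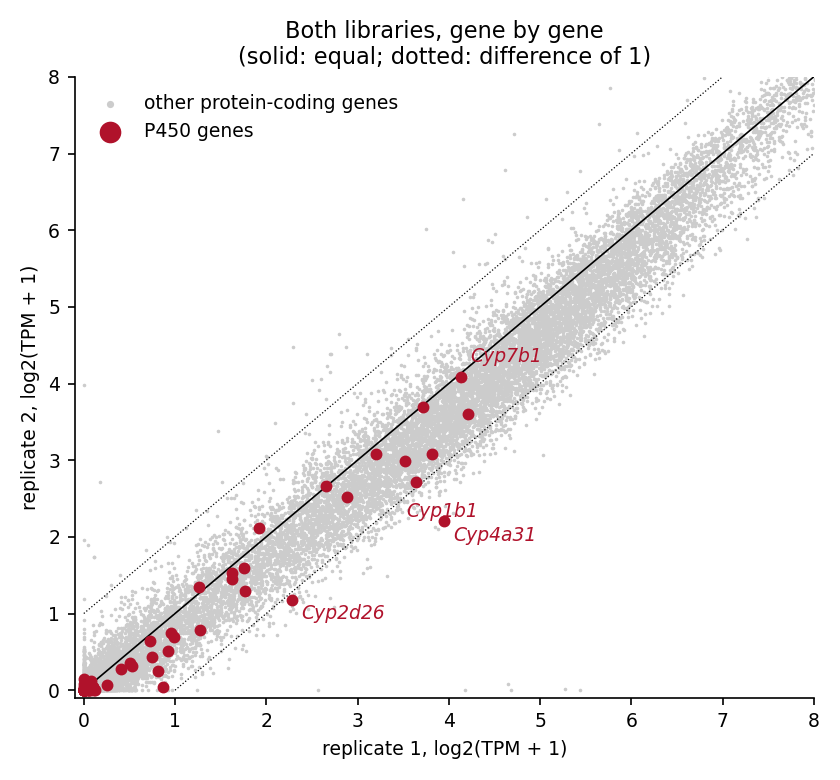
Level of each protein-coding gene in replicate 1 against replicate 2 as log2(TPM + 1), shown up to 8, with P450 genes in red, a solid line of equal level and dotted lines at a difference of 1. Of the 89 P450 genes 44 lie at the origin, and Cyp4a31 is the 1 expressed at 5 TPM or more that lies beyond the dotted line.

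Across the 18 P450 genes with a mean of 1 TPM or more, 15 were higher in replicate 1 and 3 in replicate 2 on the TPM scale, beside the 76.3% of all protein-coding genes that were higher in replicate 1. Their median log2 difference was 0.269, near the 0.289 of all genes. With TMM factors on counts, 8 of the 18 were higher in replicate 1 and the medians were -0.0628 for P450 genes and 0.0255 for all genes. The direction of the P450 genes as a set therefore depended on the scaling, while Cyp4a31 was higher in replicate 1 under each.

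Single genes were compared by depth-scaled counts. The interval of the ratio lay wholly above 1 for 7 of the 18 genes (Cyp4a31, Cyp2d26, Cyp1b1, Cyp2u1, Cyp39a1, Cyp20a1 and Cyp2s1), wholly below 1 for 3 (Cyp7b1, Cyp4f16 and Cyp2d22), and held 1 for the other 8. These intervals cover counting error only and not the spread between embryos. The same shares were not computed over all protein-coding genes, so these counts are not read as particular to P450 genes.

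**Figure D4:**
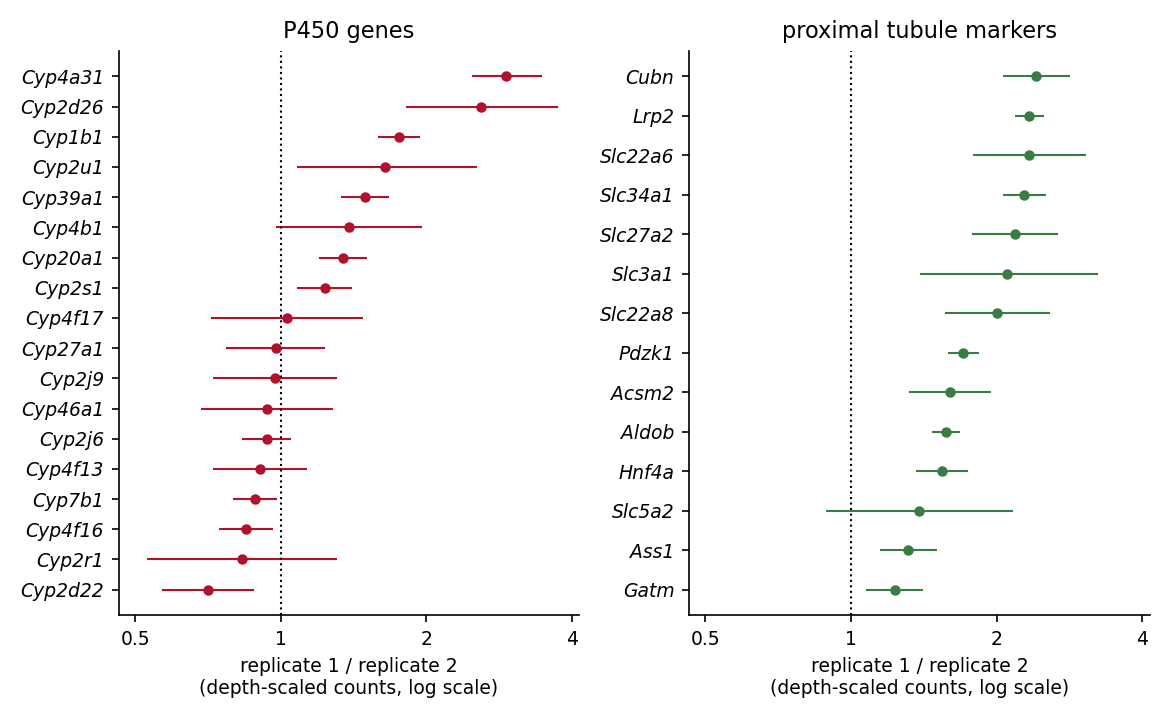
Ratio of depth-scaled expected counts, replicate 1 over replicate 2, on a log axis with exact 95% intervals for counting error, for 18 P450 genes (left) and 14 proximal tubule markers (right). Cyp4a31 at 2.93 lies above all 14 tubule markers, which run up to 2.42 for Cubn.

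The electron donors and haem supply that P450 enzymes share were expressed throughout. All 8 genes of the donor and partner list were detected, beside 59.0% of all protein-coding genes. Cyb5a (cytochrome b5) was at 295 and 318 TPM, Pgrmc1, a haem-binding P450 partner, at 222 and 192 TPM and Cyb5r3 at 132 and 100.02 TPM. Por, the reductase of the microsomal enzymes, was at 50.4 and 38.5 TPM, and Fdx1 and Fdxr were at 73.8 and 82.6 TPM and 10.3 and 6.9 TPM. All 9 haem synthesis enzymes were detected, beside the same 59.0%. Alad was at 84.1 and 81.1 TPM, Urod at 80.03 and 64.1 TPM and Alas1, the rate-limiting enzyme outside red cells, at 47.4 and 35.3 TPM. Por alone thus stood above every P450 gene of the set in both libraries.

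Of the 16 receptors and factors that regulate P450 genes 9 were detected, a share near the 59.0% of all protein-coding genes. Rxrb, a common partner of nuclear receptors, was at 21.25 and 16.0 TPM. None of the 16 was at 0 counts in both libraries.

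Transcript assignments were mostly stable. Among the 18 genes, 9 had 1 transcript in the tables and 9 had several, and 8 of those 9 had the same leading transcript in both libraries, the exception being Cyp4a31. All 18 were led by a coding transcript in both. These counts were not made over all protein-coding genes, so they are not read as particular to P450 genes. Coding transcripts nevertheless held only 49.7% of the Cyp27a1 level in replicate 1 and 66.5% in replicate 2, the remainder falling on short transcripts with a retained intron (one of 645 nt at 36.0% and 24.4%). For Cyp4f16 coding transcripts held 74.4% and 64.5%, and for Cyp20a1 94.7% and 80.1%, with a transcript subject to nonsense-mediated decay taking 5.27% and 19.9%.

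Reads of the expressed members could mostly be placed. Of the 18 genes 9 shared no stretch of 100 nt with any other gene of the annotation, and the highest shared fraction was 8.59% for Cyp2u1, all of it with the antisense gene 4930534D22Rik. Cyp2s1 overlapped a noncoding gene, Gm26707, over 260 exonic bases on the opposite strand. No source used here says if reads were counted by strand, and reads in these overlaps cannot be told apart.

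Of the 89 genes 70 lie within 500 kb of another P450 gene, and 10 of those (14.3%) were detected, while 7 of the 19 genes (36.8%) that lie alone were. Genes at 0 counts made up 55.7% of the clustered and 26.3% of the solitary genes. Both shares of detected genes are below the 59.0% of all protein-coding genes, and members of a cluster are related copies rather than independent observations.

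The clusters themselves differed. The Cyp2c cluster (chromosome 19, 39007019 to 40187333) had 14 members, none detected and 12 at 0 counts, and the Cyp3a cluster (chromosome 5, 145345279 to 146113287) had 6, none detected. In the cluster on chromosome 7 (25802475 to 27158668) 1 of 13 members was detected, Cyp2s1 at its end. The Cyp4f cluster (chromosome 17, 32452723 to 32947402) had 3 of 8 detected. Cyp4a31 and Cyp4b1 were the 2 detected members of 7 on chromosome 4 between 115106323 and 115647723, and the Cyp2j cluster on the same chromosome had 2 of 8.

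RefSeq windows from 250 bases before to 50 after the start (build GRCm38.p6) were matched for 69 of the 89 genes. Among the 20 without a window were Cyp7b1, Cyp39a1 and Cyp4a31, and no test was made. Windows of the 12 detected genes that matched held a median of 8 CpG dinucleotides in 300 bases, against 2 for the 36 with 0 counts in both libraries and 13 for 17492 protein-coding genes. At least 10 CpG were present in 6 of the 12 detected genes and in 0 of the 36 silent ones, beside 57.2% of all protein-coding genes. With windows within 100 nt of the annotated start alone, the detected genes numbered 11, with a median of 6 CpG and 5 at 10 or more.

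**Figure D5:**
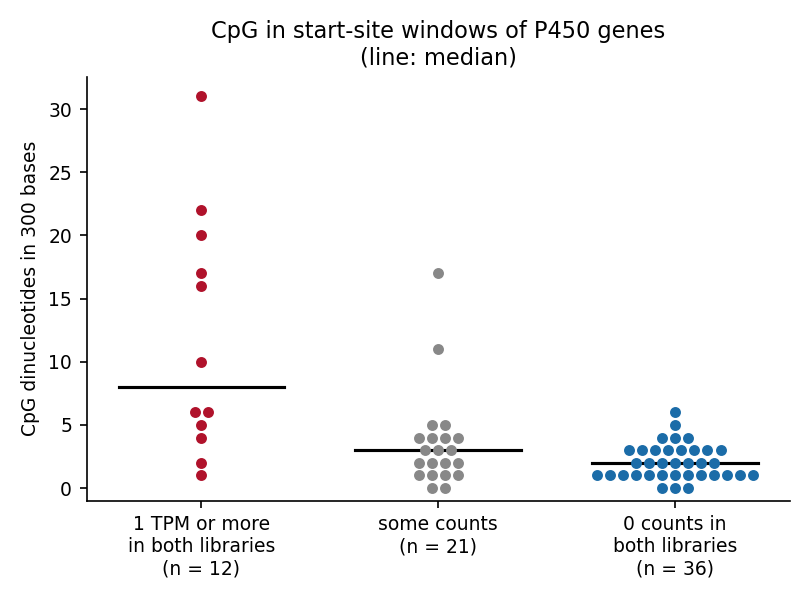
Number of CpG dinucleotides in the 300-base start-site window of 69 P450 genes, by whether the gene reached 1 TPM in both libraries, had some counts, or had 0 counts in both. The line is the median (8 for the detected genes and 2 for the silent ones), and no silent gene has more than 6.

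The hexamer TATAAA, searched on both strands, was found in 1 of the 12 detected windows and in 20 of the 36 silent ones (55.6%), against 13.3% of all protein-coding genes. On the sense strand between 15 and 45 bases before the start it was found in 0 of 12 and 9 of 36 (25%), against 3.09%. The hexamer AGGTCA, a site bound by nuclear receptors, on both strands, was in 0 of 12 and 15 of 36, against 14.5% of all, and GCGTG, the core bound by Ahr and Arnt, in 6 of 12 and 2 of 36, against 38.4%. These matches are counts of letters in the window and show no binding. The median share of G and C was 55.3% in the detected windows and 47.2% in the silent ones, and GCGTG itself holds a CpG. Silent windows include those of related copies, which are not independent observations.

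The 250 bases before the start are shown for 3 genes that illustrate the range: Cyp20a1, high with many CpG, Cyp2d26, detected and higher in replicate 1, and Cyp1a2, at 0 counts. Capitals mark CpG dinucleotides and the hexamer TATAAA, and each sequence is on the strand of its gene. That of Cyp20a1 is at chr1:60343050-60343299 on the plus strand, that of Cyp2d26 at chr15:82794246-82794495 and that of Cyp1a2 at chr9:57683656-57683905, both on the minus strand.
Cyp20a1: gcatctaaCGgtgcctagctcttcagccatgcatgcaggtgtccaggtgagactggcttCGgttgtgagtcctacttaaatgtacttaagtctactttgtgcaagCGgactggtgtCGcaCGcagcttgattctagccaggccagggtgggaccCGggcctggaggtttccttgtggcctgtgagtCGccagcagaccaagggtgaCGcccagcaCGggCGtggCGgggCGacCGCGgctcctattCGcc
Cyp2d26: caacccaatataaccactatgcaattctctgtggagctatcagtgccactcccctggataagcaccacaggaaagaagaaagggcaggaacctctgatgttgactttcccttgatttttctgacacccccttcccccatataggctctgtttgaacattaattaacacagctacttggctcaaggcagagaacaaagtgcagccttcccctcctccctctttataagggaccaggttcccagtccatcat
Cyp1a2: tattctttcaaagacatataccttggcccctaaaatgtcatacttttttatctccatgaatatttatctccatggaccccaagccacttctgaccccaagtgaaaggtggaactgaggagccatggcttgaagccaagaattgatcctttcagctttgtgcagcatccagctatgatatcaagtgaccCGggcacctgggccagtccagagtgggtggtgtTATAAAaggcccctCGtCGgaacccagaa
Cyp20a1 has 15 CpG in the bases shown and no TATAAA. Cyp1a2 has 3 CpG, and its TATAAA begins 29 bases before the start. Cyp2d26 has no CpG in the bases shown and no TATAAA on this strand. It does hold TTTATA there, which reads as TATAAA on the other strand. Cyp2d26 is thus the 1 detected gene counted above for that hexamer.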

How the data were processed

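Total RNA of 2 libraries of 1 group was measured. Per the deposited README files, reads were quantified on mm10 with annotation release M4; no source used here names an aligner or quantification tool. The authors deposited expected counts (estimated reads, not whole numbers), TPM, posterior mean TPM and FPKM per gene and transcript, the bounds of a TPM credibility interval (a signal on the TPM scale, level not given) and the percent of a gene taken by each transcript.

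Symbols came from GENCODE M21 on GRCm38, the assembly of mm10 but a later release than that of the tables; 42462 of 43346 gene IDs matched, all 93 symbols of the Cyp form included, before the 4 exceptions. Features that name no gene (spike-ins and 26248 numbered features) held 4.339 and 4.949 percent of counts and were kept out of gene totals.

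With 1 group no test was made. Detection was 1 TPM in both libraries. Differences are log2(TPM + 1), replicate 1 minus 2, and the pseudocount understates those of low genes. Ratios are of counts rounded to whole numbers over total counts, with exact conditional binomial intervals that cover counting error only. TMM factors came from edgeR 4.0.16 in R 4.3.3 on rounded counts. The size rule was tested on simulated libraries. Unlike the real pair, these had no overall shift between them in TPM, and no result here rests on that test. No protein sequences were used, so the planned identity of proteins was replaced by that of coding sequences (Biopython 1.88) and by shared stretches of 100 nt. Promoter windows are from RefSeq, the one nearest to the start of the highest transcript, or of the gene where every transcript was at 0. Other software was matplotlib 3.10.9, scipy 1.17.1, pandas 2.3.3 and numpy 2.4.6 under Python 3.11.15.

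The members, role groups and lists were chosen with earlier results of these data known. Named were genes with a mean of 1 TPM or more, all Cyp4a genes, all members of families 7, 8, 11, 17, 19, 20, 21, 26, 27, 39 and 46, the highest member of each other family, members apart by the size rule, symbols left out for their spelling, and up to 3 highest and any silent members of each list; other genes were named after their values were seen, as representatives of their subfamily, role or list. Motifs, clusters and shared stretches were also chosen then. Some members of the pathway lists are not reported by name here.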

Additional observations from a re-analysis of the deposited data

How the results depend on the processing

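The number of P450 genes at 1 TPM or more in both libraries was 17 and lay between 15 and 24 under every alternative but a floor of 5 TPM, which left 8; without either replicate it was 17 to 18. The summed level of all 89 genes, 119.9 TPM, became 84.3 in FPKM, a different unit, and 160.3 with Cyp51 and symbols that end in a letter added, and ranged from 98.1 to 141.65 without a replicate. The Cyp4a sum of 9.51 TPM ranged from 3.79 to 15.2 and its share of 7.31% from 3.86 to 10.8% without a replicate, the low value of each being replicate 2 alone. The number of genes apart between libraries rose from 1 to 2 with a pseudocount of 0.1 TPM, which added Cyp1b1, and to 2 with no minimum level, which added Cyp2d26. The median log2 difference of 0.269 moved to 0.0246 over the genes with a mean of 1 FPKM or more, 0.122 with a pseudocount of 5 TPM and 0 with no filter on level, and it reversed to -0.0628 with TMM factors and to -0.0428 with median-of-ratios size factors; over fixed sets of genes, the 18 members had a median of 0.0887 and all genes of 0.0796 in FPKM, and the all-gene median of 0.289 became 0.0255 and 0.0503 on these counts. Of the means of the 32 genes named by rule, 13 moved by more than 1 SD with posterior mean TPM and 11 in FPKM. The 13 include every named gene at 0 counts in both libraries. The SD of such a gene is 0, so any posterior mean above 0 counts as a move. Moves in FPKM include the change of unit. No paired analysis was possible because there is 1 group. Depth limits genes under 10 counts, whose ratios have intervals of several fold.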

Other observations

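Of 16 pseudogenes and antisense transcripts with P450 symbols, 12 had 0 counts in both libraries and 3 had counts in both. Cyp4x1os, antisense to Cyp4x1, had 3.28 and 1.18 counts, Cyp4b1-ps2 had 1.38 and 1, and Cyp4f41-ps had 1 and 1.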
